A study of Mus musculus with 16 samples.

Results

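Molecular chaperones of the heat shock protein (HSP) and J-domain families were followed across age in mouse skeletal muscle. Members were taken by gene symbol alone: the Hspa, Hspb, Hspd, Hspe and Hsph series, the Hsp90 genes, and the Dnaja, Dnajb and Dnajc series of J-domain proteins. On the array, 68 genes read by 95 probes carried such a symbol, of 20122 genes with a RefSeq symbol. Of the 68, 61 could be tested, among 21777 genes tested in all. RNA of the gastrocnemius, a calf muscle, was hybridised to 1-colour arrays from female mice of the inbred strain C57Bl/6J that had no treatment, at 3, 15, 24 and 29 months of age, with 4 samples at each age and 1 array per sample. All 4 groups shared sex, strain and tissue and differed in age alone by their labels. The labels do not state whether each sample was a separate animal, and p-values here reflect the variation among these arrays, part of which may be technical.

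Chaperones keep proteins folded. J-domain proteins deliver unfolded proteins to Hsp70 and make it hydrolyse ATP, Hsp110 proteins then release the nucleotide, Hsp90 acts on nearly folded clients, and small HSPs hold unfolded proteins without ATP. In muscle, small HSPs and their partners sit at the Z-disc and on titin and filamin, where contraction unfolds proteins, and the transcription factor Hsf1 raises the inducible members after heat or exercise through heat shock elements in their promoters.

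Levels are log2 of the spot signal minus the 75th percentile of all probes on the same array, so that 0 is that percentile. A level is compared only with the same probe on other arrays. A change is the mean log2 level of the older age minus that of the younger, and a gene was called at an adjusted p under 0.05. Slide 1 held the samples of 3 and 15 months, and slide 2 the older samples. Slide and age therefore cannot be told apart in 29 against 3 months or in 24 against 15 months, while 15 against 3 and 29 against 24 months each stayed on 1 slide.

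All 14 muscle fibre markers were well above background on all 16 arrays. Mean levels of T and NK cell, B and plasma cell, fibroblast and adipocyte markers spanned a wider range at 24 and 29 months than at the younger ages. The summed signal of 6 erythroid markers, as log2 over the 75th percentile, was 9.28 to 9.85 at 29 months, against 8.32 to 9.16 at 3 months, and that of 7 smooth muscle and pericyte markers was 4.75 to 5.20 at 29 months, against 5.28 to 5.87 at 3 months, so neither pair of groups overlapped. Adipocyte marker signal was 6.07 to 7.31 at 29 months, against 6.20 to 6.67 at 3 months, and stood at 8.21 on the array of 24 months replicate 4. The mean log2 level of 10 T and NK cell markers was 2.26 on the array of 29 months replicate 1 and between -2.77 and -0.87 on the other 15 arrays, with all 10 markers above background there and 4 to 8 elsewhere. The summed signal of the T and NK cell markers lay between 3.61 and 4.10 at 3 and 15 months, between 3.94 and 4.28 at 24 months, and between 3.79 and 6.15 at 29 months. The array of 29 months replicate 1 also had the lowest weight in a fit of array quality (0.265) and is left out beside each call it changes. It was the lowest of the 16 arrays for 14 of the 61 genes, which was not counted over all genes. The part of these cells in the chaperone results was not tested. In whole muscle, fewer cells of a type and less RNA per cell cannot be told apart.

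Of the 68 genes, 60 were well above background on all 16 arrays. Dnajb8 passed on all 4 arrays at 3, 15 and 24 months and on 2 at 29 months. Dnajb13, Dnajb3, Dnajb7, Dnajc22 and Dnajc6 were not well above background on any of the 16 arrays, and Hspa12a was so on 6. Hspa14, an Hsp70 that works on the ribosome, was left out for an outlier spot. The RefSeq names Dnajb5 and Hspa1b also fit the pattern but had no probe of their own.

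Promoter sequence was searched for short units of the heat shock element, and binding by heat shock factors was not tested. RefSeq promoter windows (GRCm38.p6, 250 bases before to 50 after each start) were matched for 55 of the 68 genes, in 70 windows. The rest, among them Dnajc2, Dnajc12, Hsp90aa1 and Hspa8, had no window and were not searched. The units searched were GAANNTTC and TTCNNGAA, which read the same on both strands and can overlap by sharing a TTC or GAA. GAANNTTC was found in 14 of the 70 windows (20%), in 12 genes, against 7.86% of all 32851 windows. TTCNNGAA was found in 8 of the 70 (11.4%), against 8.52% of all. At least 1 of these units was found in 16 of the 70 (22.9%), against 15.1% of all. Overlapping windows, such as the 2 of Dnajb6 or those of Hspd1 and Hspe1, count the same unit more than once. By gene, 14 of the 55 had at least 1 unit (25.5%), against 17% of all 27025 genes with a window. The 14 genes were Hspb1, Hspb3, Hspb6, Hspb8, Hspa1a, Hsph1, Hspd1, Hspe1, Dnaja1, Dnaja4, Dnajb4, Dnajb6, Dnajc10 and Dnajc27. The endoplasmic reticulum stress element, written here as CCAAT and CCACG with 9 bases between and searched on both strands, was found in 3 of the 70 windows (4.29%), those of Hspa5, Hsp90b1 and Dnajc3, against 0.119% of all. The 250 bases before the start are printed for the inducible Hsp70 gene Hspa1a, the small HSP gene Hspb1, the called gene Dnajb6 and Hspa5, the Hsp70 of the endoplasmic reticulum. Capitals mark the heat shock units, or the stress element in Hspa5.
Hspa1a, chr17:34972157-34972406, minus strand: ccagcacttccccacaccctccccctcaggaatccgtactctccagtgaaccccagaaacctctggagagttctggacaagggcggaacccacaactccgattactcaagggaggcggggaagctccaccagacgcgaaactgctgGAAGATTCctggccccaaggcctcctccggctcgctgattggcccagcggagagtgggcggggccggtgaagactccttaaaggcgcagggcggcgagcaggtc
Hspb1, chr5:135887669-135887918, plus strand: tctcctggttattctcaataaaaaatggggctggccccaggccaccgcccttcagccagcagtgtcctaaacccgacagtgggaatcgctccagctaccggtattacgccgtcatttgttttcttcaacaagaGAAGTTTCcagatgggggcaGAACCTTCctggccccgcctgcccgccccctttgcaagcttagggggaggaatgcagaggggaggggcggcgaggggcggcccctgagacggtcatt
Dnajb6, chr5:29735648-29735897, plus strand: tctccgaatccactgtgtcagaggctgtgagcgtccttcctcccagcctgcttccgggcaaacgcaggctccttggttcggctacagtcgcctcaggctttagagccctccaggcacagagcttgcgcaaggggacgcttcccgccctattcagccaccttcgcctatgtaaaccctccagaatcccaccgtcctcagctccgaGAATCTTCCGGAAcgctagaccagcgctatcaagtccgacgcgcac
Hspa5, chr2:34771840-34772089, plus strand: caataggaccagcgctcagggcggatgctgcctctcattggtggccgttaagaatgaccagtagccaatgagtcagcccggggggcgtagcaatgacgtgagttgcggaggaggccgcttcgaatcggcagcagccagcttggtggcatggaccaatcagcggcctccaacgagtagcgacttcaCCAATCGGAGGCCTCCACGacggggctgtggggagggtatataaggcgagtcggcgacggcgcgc
In the Dnajb6 window the units GAANNTTC and TTCNNGAA share their TTC, whereas Hspb1 holds 2 separate GAANNTTC units and Hspa1a holds 1.

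Between 29 and 3 months, 9 of the 61 chaperone genes were called (14.8%), close to the 14.6% of all genes tested. Of these, 7 were higher at 29 months (11.5%, against 6.99% of all genes) and 2 were lower (3.28%, against 7.66% of all genes). The median log2 change of the 61 was 0.06, against -0.04 for all genes. The change was above 0 for 34 of the 61, against 45.4% of all genes. The 4 arrays of 29 months lay wholly above or below the 4 of 3 months for 11 of the 61 genes, against 19.7% of all genes. At an unadjusted p under 0.05 there were 23 of the 61 (37.7%), against 28.7% of all genes. The count moved with single arrays: 15 were called without 29 months replicate 1 (13 higher, 2 lower, against 13.7% of all genes) and 5 without 3 months replicate 2 (against 10% of all genes). With arrays scaled by their median in place of the 75th percentile, 1 of the 9 was called, Dnajc2, against 7.06% of all genes.

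**Figure D1:**
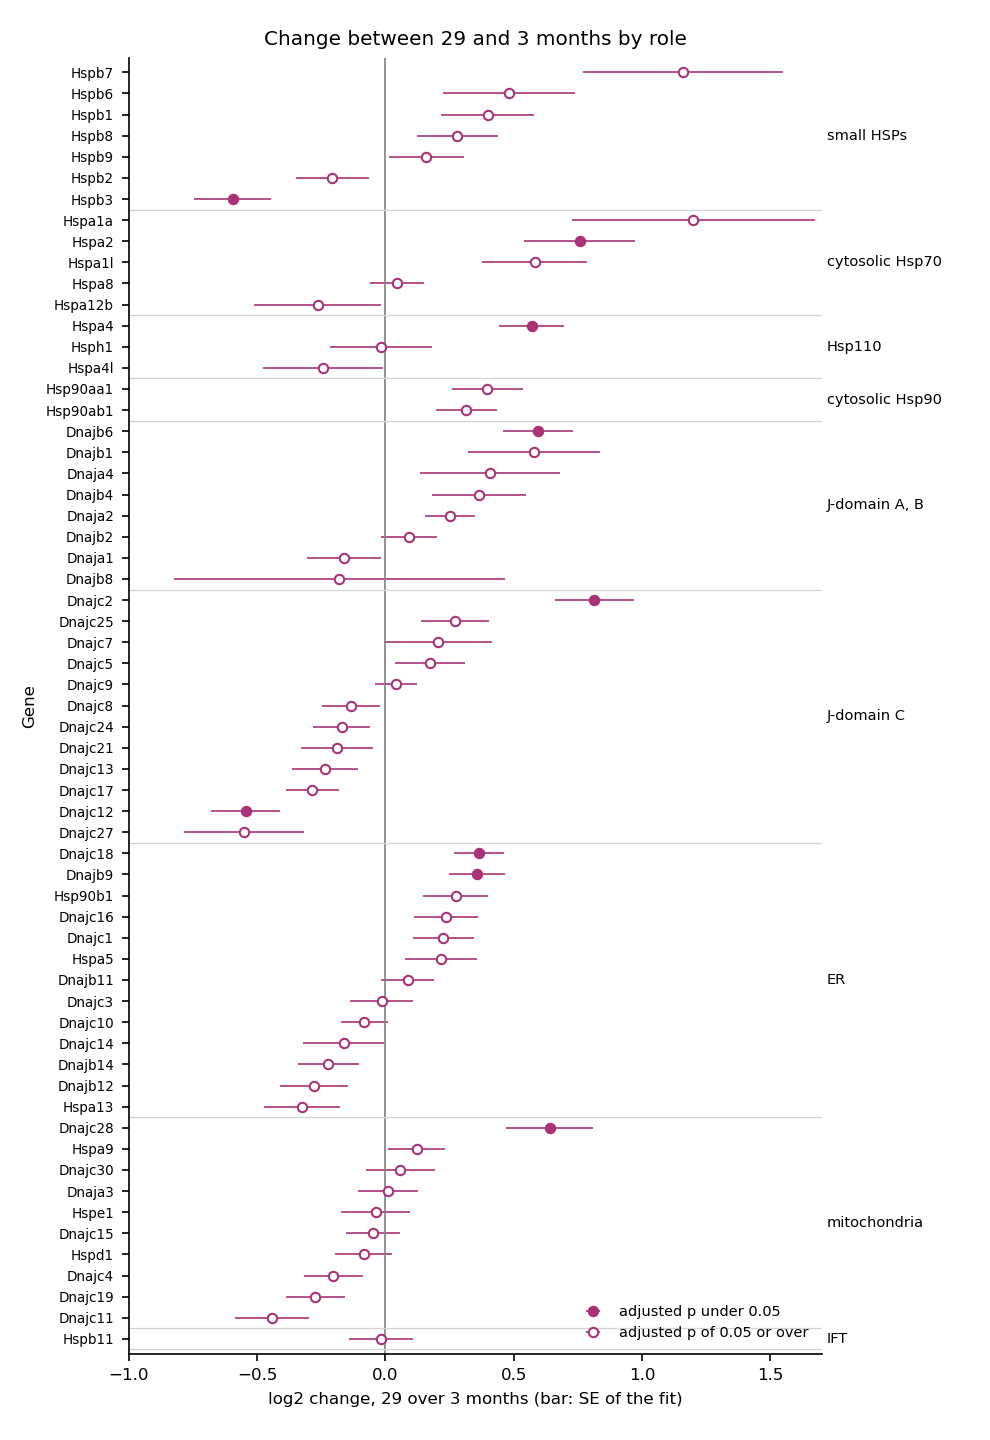
Log2 change at 29 over 3 months for the 61 tested genes, ordered by role and size, with the standard error of the fit as bars. Filled points are the 9 called genes. The 2 filled points left of 0 are Hspb3 and Dnajc12, and the widest bars belong to Dnajb8, Hspa1a and Hspb7.

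Of the 37 tested J-domain genes 6 were called (16.2%), and of the 24 tested HSP genes 3 (12.5%), both near the 14.6% of all genes. Of the 12 tested J-domain C genes not placed here in the endoplasmic reticulum or mitochondria, Dnajc2 rose and Dnajc12 fell, with a median change of -0.15. Dnajc2, which joins Hspa14 in a complex that meets new chains as they leave the ribosome, had the smallest p of the 61. Dnajc2 read 1.41, 1.82, 1.73 and 2.0 at 3 months, 2.10, 1.94, 1.73 and 2.12 at 15 months, 2.39, 2.72, 2.17 and 2.14 at 24 months, and 2.42, 2.81, 2.50 and 2.49 at 29 months. All arrays of 24 and 29 months lay above all arrays of 3 and 15 months. The change at 29 over 3 months was 0.81 ± 0.15 (SE), a 1.76-fold rise (adjusted p = 0.00294), of which 0.23 lay between 15 and 3 months and 0.20 between 29 and 24 months, neither called.

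Dnajc12, whose human counterpart helps fold the aromatic amino acid hydroxylases, fell. Dnajc12 read 3.15, 3.26, 3.13 and 3.01 at 3 months, 3.17, 2.84, 3.16 and 2.84 at 15 months, 2.76, 2.87, 3.05 and 2.48 at 24 months, and 2.50, 2.52, 2.48 and 2.88 at 29 months. It was 1.46-fold lower at 29 than at 3 months (-0.54 ± 0.13, adjusted p = 0.0145), and all 4 arrays of 29 months lay below those of 3 months. The changes of Dnajc12 between neighbouring ages were -0.14, -0.21 and -0.20, none of them called. The call was lost without the 4 arrays of lowest weight, a setting chosen after seeing the data (-0.44, adjusted p = 0.0648).

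The other 10 of these genes did not pass the test, with changes from -0.55 for Dnajc27, a small GTPase with a J domain, to 0.27 for Dnajc25. Dnajc27 read -2.48, -1.86, -1.50 and -1.69 at 29 months, against -1.02, -1.03, -1.54 and -1.75 at 3 months. The groups overlapped, and the adjusted p was 0.135. Dnajc17 read -0.67, -0.78, -0.75 and -0.64 at 29 months, against -0.43, -0.42, -0.44 and -0.42 at 3 months. Those groups did not overlap, but the change of -0.28 gave an adjusted p of 0.0807, or 0.0472 without 24 months replicate 3. Dnajc5, the cysteine string protein of synaptic vesicles, also did not overlap, with 8.58 to 8.84 at 29 months against 8.41 to 8.55 at 3 months, yet its change of 0.17 had an adjusted p of 0.436. Dnajc7, a cofactor that hands clients between Hsp70 and Hsp90, lay between 4.09 and 4.19 at 29 months and between 3.33 and 4.23 at 3 months. Dnajc25 was called without 29 months replicate 1 (0.39, adjusted p = 0.0457). The changes of Dnajc8, Dnajc9, Dnajc13, Dnajc21 and Dnajc24 lay between -0.24 and 0.04, with adjusted p-values of 0.244 or more. The other probe for Dnajc24 gave -0.37 and was not called (adjusted p = 0.0857 over all probes).

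**Figure D2:**
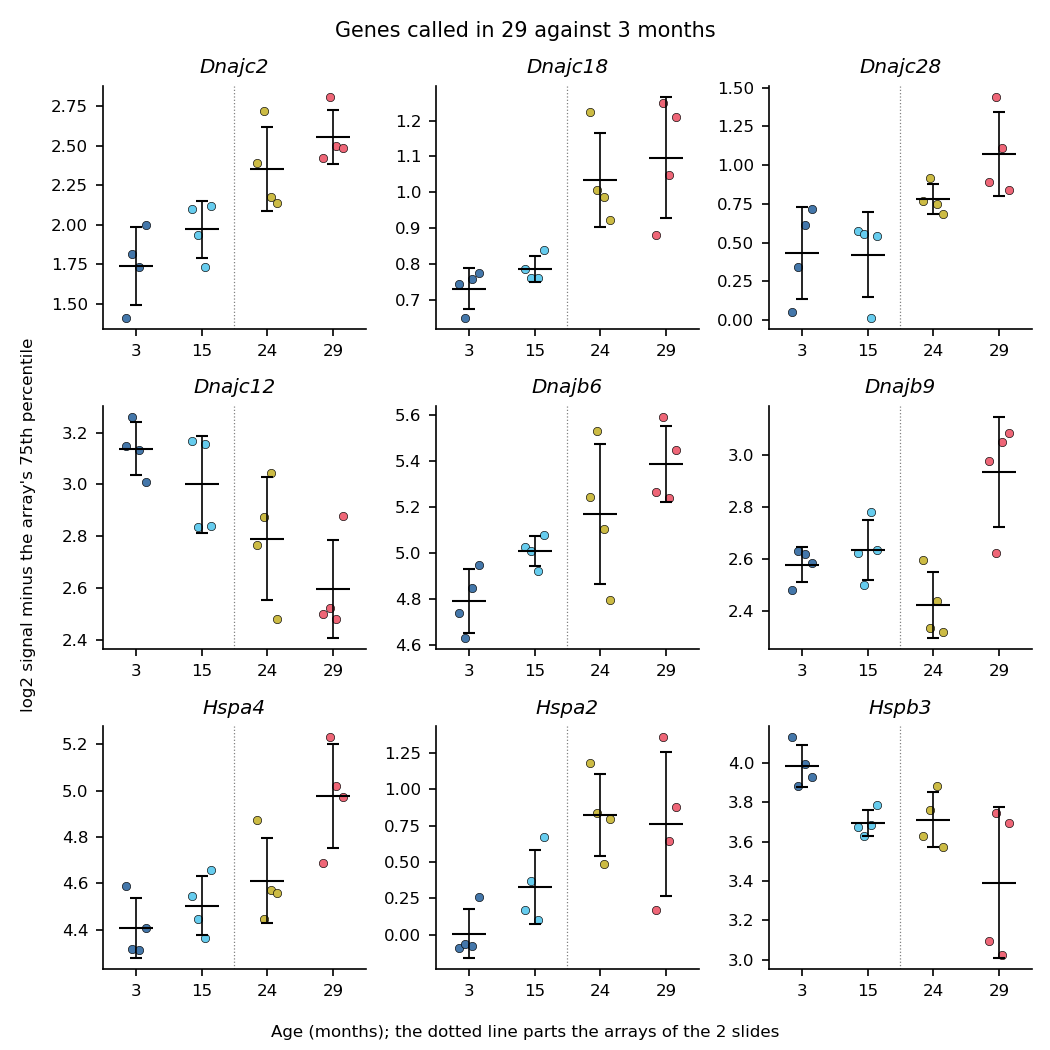
Log2 level (signal over the array's 75th percentile) on each array for the 9 genes called at 29 against 3 months, by age in months, with the mean and SD of 4 arrays. In Dnajc2 and Dnajc18 the arrays right of the dotted line, which are those of slide 2, all lie above those of slide 1, whereas in Dnajb9 3 of the 4 arrays of 29 months lie above all other arrays.

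Among the 8 tested J-domain A and B genes of the cytosol and nucleus, 1 rose. A change above 0 was seen in 6 of 8 (median 0.31), against 45.4% of all genes. Dnajb6 keeps proteins from aggregating at the Z-disc, and its human gene is mutated in a limb-girdle muscular dystrophy. Dnajb6 read 4.74, 4.63, 4.85 and 4.95 at 3 months, 5.02, 5.01, 4.92 and 5.08 at 15 months, 5.25, 5.53, 5.11 and 4.80 at 24 months, and 5.26, 5.59, 5.24 and 5.45 at 29 months. Every array of 29 months lay above every array of 3 months, by 0.60 ± 0.14 on average (1.51-fold, adjusted p = 0.00955). Tested each on its own, the 4 probes for Dnajb6 gave changes of 0.60, 0.46, 0.89 and 0.99, and 3 of the 4 were called. The probe with a change of 0.99 was also called within slide 2, where it was 0.45 ± 0.09 higher at 29 than at 24 months (adjusted p = 0.0250 over all probes). The within-slide changes of the main probe were 0.22 (15 over 3 months) and 0.22 (29 over 24 months), neither called.

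Dnajb1, the main heat-inducible partner of Hsp70, varied most at 29 months. Dnajb1 read 2.50, 2.07, 2.59 and 2.50 at 3 months, 2.21, 2.67, 2.57 and 2.81 at 15 months, 2.25, 1.87, 2.44 and 2.15 at 24 months, and 3.93, 2.66, 2.98 and 2.41 at 29 months. The array of 29 months replicate 1 stood at 3.93, and the groups of 29 and 3 months overlapped (change 0.58 ± 0.26, adjusted p = 0.153). Without that array the change was 0.27 (adjusted p = 0.369). At 29 over 24 months the change of Dnajb1 was 0.82 (1.76-fold, adjusted p = 0.131), or 0.51 (adjusted p = 0.154) without that array. Dnaja4 read 4.33 to 5.93 at 29 months, against 4.41 to 5.14 at 3 months, and Dnajb4 read 0.21 to 1.20 at 29 months, against 0.13 to 0.77 at 3 months. Neither was called, but without 29 months replicate 1 both were, with changes of 0.70 (adjusted p = 0.0478) for Dnaja4 and 0.54 (adjusted p = 0.0360) for Dnajb4. Dnaja2 read 4.69, 4.89, 4.83 and 4.78 at 29 months, against 4.49, 4.46, 4.56 and 4.68 at 3 months. Those groups did not overlap, at a change of 0.25 with an adjusted p of 0.0982. The other probe for Dnaja2 did not rise (-0.06, adjusted p = 0.824 over all probes). Dnaja1, a partner of the constitutive Hsp70, and Dnajb2 had changes of -0.16 and 0.09. The other probe for Dnajb2 gave 0.34, and that for Dnaja4 gave 0.71, against 0.41 for its main probe. Neither was called (adjusted p = 0.159 and 0.140 over all probes). Dnajb8, near the detection limit, ranged from -4.05 to -0.93 at 29 months and from -2.63 to -2.25 at 3 months.

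Of the 3 tested genes of the Hsp110 group, which exchange nucleotide on Hsp70, Hspa4 rose and the other 2 were not called, with a median change of -0.02 over the 3. Hspa4 read 4.59, 4.32, 4.31 and 4.41 at 3 months, 4.55, 4.45, 4.37 and 4.66 at 15 months, 4.88, 4.45, 4.57 and 4.56 at 24 months, and 4.69, 5.23, 5.02 and 4.97 at 29 months. The 4 arrays of 29 months lay above those of 3 months by 0.57 ± 0.13 (1.49-fold, adjusted p = 0.00776), and 0.36 of this lay between 29 and 24 months on slide 2 (adjusted p = 0.170). The other 2 probes for Hspa4 gave 0.11 and 0.52 and were not called, and the mean over the 3 probes was 0.40 (adjusted p = 0.382). Hsph1 read 3.86, 3.80, 4.37 and 4.41 at 3 months, 3.76, 3.81, 4.35 and 4.06 at 15 months, 4.25, 3.66, 4.02 and 3.79 at 24 months, and 3.67, 4.25, 4.04 and 4.40 at 29 months. The heat-inducible Hsph1 overlapped at every age, with a change of -0.02 at 29 over 3 months (adjusted p = 0.966). The other probe for Hsph1 gave 0.08 and was not called. Hspa4l read -0.35 to 0.70 at 29 months, against 0.24 to 0.57 at 3 months (change -0.24, adjusted p = 0.542).

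Of the 5 tested cytosolic Hsp70 genes, Hspa2 rose and 4 of 5 changes were above 0 (median 0.58), against 45.4% of all genes. Hspa2 is the form best known from male germ cells. Hspa2 read -0.09, -0.06, -0.08 and 0.26 at 3 months, 0.17, 0.37, 0.10 and 0.67 at 15 months, 1.18, 0.84, 0.49 and 0.80 at 24 months, and 0.17, 1.36, 0.65 and 0.88 at 29 months. The groups overlapped at 29 and 3 months, through 0.17 in 29 months replicate 1 and 0.26 in 3 months replicate 4. The rise was 0.76 ± 0.22 (1.69-fold, adjusted p = 0.0293), and without 29 months replicate 1 it was 0.95 (adjusted p = 0.00600). The call was lost without 29 months replicate 2 (0.56, adjusted p = 0.0776), 29 months replicate 4 (0.0638), or 3 months replicate 1 (0.0713), 2 (0.0710) or 3 (0.0690), with no filter on dim probes (0.0622) and with only the ages compared (0.0790).

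Hspa1a, the stress-inducible Hsp70 whose promoter unit is printed above, gave the largest change of the 61 but was not called. Hspa1b is nearly identical, so which of the pair the probe read is uncertain. Hspa1a read 1.92, -0.70, -1.31 and -0.56 at 3 months, 0.47, 0.21, 0.40 and 0.68 at 15 months, -0.13, -0.74, -0.51 and -0.49 at 24 months, and 1.24, 0.90, 1.09 and 0.92 at 29 months. The arrays of an age lay close together at 15, 24 and 29 months, but at 3 months replicate 1 stood at 1.92 and the other 3 at -0.56 or lower. With all arrays the change at 29 over 3 months was 1.20 ± 0.47 (2.30-fold, adjusted p = 0.107) and the groups overlapped. Without 3 months replicate 1 it was 1.89 ± 0.19 (adjusted p = 6.64e-05). The spread at 3 months enters every comparison, because the ages share 1 estimate of it. At 29 over 24 months, on slide 2, all 4 arrays were higher at 29 months, by 1.51 (2.84-fold), with an adjusted p of 0.128 over all arrays and 0.00208 without 3 months replicate 1. Fitted on those 2 ages alone, which uses no array of 3 months, that difference had an adjusted p of 0.0441. At 15 over 3 months, on slide 1, the change was 0.60 (adjusted p = 0.778) with all arrays and 1.30 (adjusted p = 0.00674) without that array. Between 24 and 15 months, across the slides, Hspa1a was lower at 24 months on all 4 arrays (change -0.91, adjusted p = 0.411).

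Hspa1l, encoded beside Hspa1a, read 1.83 to 2.57 at 29 months, against 1.56 to 1.94 at 3 months. Its change of 0.58 had an adjusted p of 0.0725, or 0.0222 (change 0.75) without 29 months replicate 1. Hspa8 read 8.80, 8.76, 8.98 and 9.03 at 3 months, 8.94, 9.05, 8.94 and 9.04 at 15 months, 8.96, 8.75, 8.88 and 8.81 at 24 months, and 8.66, 9.07, 8.93 and 9.09 at 29 months. Hspa8, the constitutive Hsp70, had a change of 0.05 (adjusted p = 0.818), and its other 2 probes gave -0.04 and -0.06. Hspa12b, a distant relative found in endothelium, read 0.73 to 1.34 at 29 months, against 1.04 to 1.44 at 3 months (change -0.26, adjusted p = 0.528).

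Neither cytosolic Hsp90 gene passed the test at 29 over 3 months. Hsp90aa1 read 3.08, 2.87, 3.14 and 3.31 at 3 months, 3.31, 3.39, 3.39 and 3.50 at 15 months, 3.73, 3.23, 3.31 and 3.30 at 24 months, and 3.44, 3.80, 3.25 and 3.50 at 29 months. Hsp90aa1, the inducible form, had a change of 0.40 ± 0.14 (1.32-fold, adjusted p = 0.0659), and it was called without 24 months replicate 1 (adjusted p = 0.0421) or 29 months replicate 3 (0.0395). Hsp90ab1 read 7.77, 7.75, 7.85 and 7.94 at 3 months, 8.01, 8.0, 8.10 and 8.0 at 15 months, 8.16, 8.33, 7.99 and 7.81 at 24 months, and 7.86, 8.19, 8.27 and 8.25 at 29 months. Hsp90ab1, the constitutive form, had a change of 0.32 ± 0.12 (1.24-fold, adjusted p = 0.0891), and 0.41 (adjusted p = 0.0255) without 29 months replicate 1. On slide 1 alone, the 4 arrays of 15 months lay above those of 3 months for Hsp90ab1 (change 0.20, adjusted p = 0.621) and overlapped for Hsp90aa1 (0.30, adjusted p = 0.449).

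**Figure D3:**
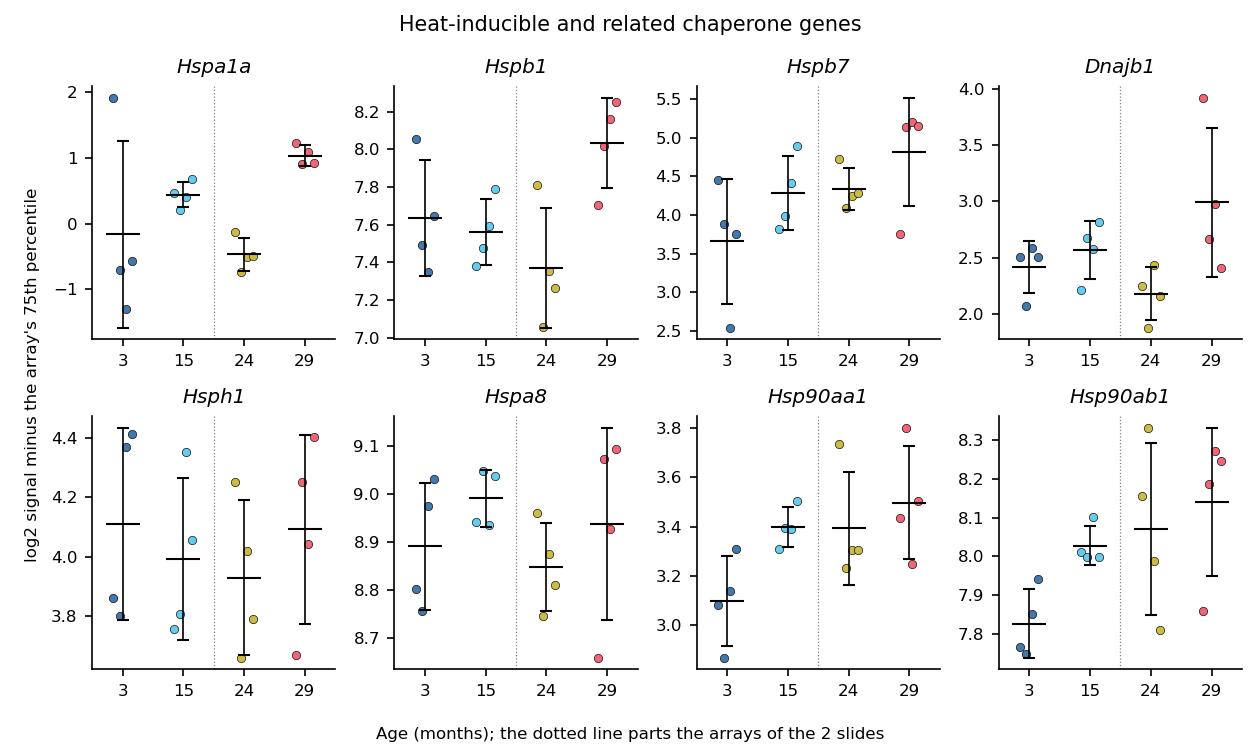
Log2 level (signal over the array's 75th percentile) on each array for 8 chaperone genes, by age in months, with the mean and SD of 4 arrays. Hspa1a shows 1 array at 1.92 among the 3-month samples and a higher 29-month than 24-month group, whereas Hsph1 and Hspa8 overlap at all ages.

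Of the 7 tested small HSP genes, Hspb3 fell and none rose, with 5 of 7 changes above 0 (median 0.28), against 45.4% of all genes. Hspb3 forms a complex with Hspb2 in muscle. Hspb3 read 4.13, 3.88, 3.99 and 3.93 at 3 months, 3.68, 3.63, 3.69 and 3.79 at 15 months, 3.63, 3.76, 3.88 and 3.57 at 24 months, and 3.09, 3.75, 3.03 and 3.69 at 29 months. All 4 arrays of 29 months lay below those of 3 months (change -0.59 ± 0.15, 1.51-fold lower, adjusted p = 0.0164). The call was lost with only the ages compared (adjusted p = 0.0841) and without the 4 arrays of lowest weight (-0.26, adjusted p = 0.109). The 15-month group lay below the 3-month group without overlap (-0.29, adjusted p = 0.531), and 2 of the 29-month arrays stood near 3.0. Its partner Hspb2 read 5.09 to 5.79 at 29 months, against 5.69 to 5.97 at 3 months (change -0.21, adjusted p = 0.368), with the low value in 29 months replicate 1.

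Hspb7, which binds filamin C at the Z-disc, showed the largest change in the group. Hspb7 read 4.45, 3.89, 2.54 and 3.75 at 3 months, 3.82, 3.99, 4.41 and 4.90 at 15 months, 4.73, 4.09, 4.24 and 4.29 at 24 months, and 3.76, 5.15, 5.21 and 5.16 at 29 months. At 29 months 3 arrays stood between 5.15 and 5.21 and replicate 1 at 3.76, within the 3-month range. The change of 1.16 ± 0.39 (2.23-fold) was not called over all arrays (adjusted p = 0.0596). Without 29 months replicate 1 it was 1.51 (adjusted p = 0.0131), and without 3 months replicate 1 it was 1.42 (adjusted p = 0.0329). Hspb6, known for its role in relaxing smooth muscle, read 7.67 to 8.93 at 29 months, against 7.56 to 8.23 at 3 months, with a change of 0.48 (adjusted p = 0.236), or 0.75 (adjusted p = 0.0322) without 29 months replicate 1.

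Hspb1 read 8.06, 7.49, 7.35 and 7.64 at 3 months, 7.38, 7.48, 7.59 and 7.79 at 15 months, 7.81, 7.06, 7.35 and 7.26 at 24 months, and 7.70, 8.02, 8.16 and 8.25 at 29 months. Hspb1, which protects actin filaments and carries 2 heat shock units in its promoter, overlapped between 29 and 3 months (change 0.40, adjusted p = 0.161). Within slide 2 it was 0.66 ± 0.18 higher at 29 than at 24 months (1.58-fold, adjusted p = 0.0816). That difference was called without 24 months replicate 1 (0.81, adjusted p = 0.0375) or without 29 months replicate 1 (0.77, adjusted p = 0.0437). Hspb8, the partner of Bag3 in clearing damaged filamin, read 5.56 to 6.19 at 29 months, against 5.51 to 5.76 at 3 months (change 0.28, adjusted p = 0.263). Hspb9, known from testis, had a change of 0.16 (adjusted p = 0.516). Hspb11, which is a subunit of intraflagellar transport in spite of its name, had a change of -0.02 (adjusted p = 0.952).

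Among the 13 tested genes of the endoplasmic reticulum, where Hspa5 and its J-domain partners fold secreted proteins, Dnajb9 and Dnajc18 rose. Of the 13 changes 7 were above 0 (median 0.09), against 45.4% of all genes. Dnajb9 holds the stress sensor Ire1 in its inactive state through Hspa5. Dnajb9 read 2.48, 2.63, 2.62 and 2.58 at 3 months, 2.62, 2.50, 2.78 and 2.63 at 15 months, 2.60, 2.33, 2.44 and 2.32 at 24 months, and 2.98, 2.62, 3.05 and 3.09 at 29 months. The levels at 3, 15 and 24 months lay between 2.32 and 2.78, and 3 of the 4 arrays of 29 months between 2.98 and 3.09. At 29 over 24 months, on slide 2, the groups did not overlap and the change was 0.51 ± 0.11 (1.43-fold, adjusted p = 0.0295), the single call among the 61 in that comparison, against 1.91% of all genes. That call was lost without 24 months replicate 2, 3 or 4 or 29 months replicate 3 or 4, where the adjusted p reached up to 0.0886, and it was lost with only those 2 ages fitted (0.292) and without the 4 arrays of lowest weight (0.34, adjusted p = 0.328). At 29 over 3 months the change was 0.36 ± 0.11 (1.28-fold, adjusted p = 0.0423) and the groups overlapped through 29 months replicate 2. It was lost in 10 of the 16 fits that left out 1 array: any of 3 months, 15 months replicate 1 or 4, 24 months replicate 3, and 29 months replicate 1, 3 or 4 (adjusted p up to 0.108). It was also lost in 7 other settings, among them the deposited values, normexp and the replicate block (adjusted p up to 0.249). The other probe for Dnajb9 was called at 29 over 3 months (0.57, adjusted p = 0.0244 over all probes). At 29 over 24 months that probe gave 0.64 and was not called (adjusted p = 0.0551).

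Hspa5 and Hsp90b1, both with the stress element in their promoters, did not pass the test. Hspa5 read 5.16, 5.56, 5.45 and 5.81 at 29 months, against 4.98, 5.18, 5.44 and 5.52 at 3 months. The groups overlapped (change 0.22 ± 0.14, adjusted p = 0.340). Hsp90b1 read 4.75, 4.72, 4.71 and 4.99 at 29 months, against 4.31, 4.32, 4.71 and 4.74 at 3 months. Hsp90b1, the Hsp90 of the compartment, had 3 arrays of 29 months between 4.71 and 4.75, and its change of 0.27 had an adjusted p of 0.166. Dnajc3, a partner of Hspa5 with the same element, had a change of -0.01 (adjusted p = 0.958). Dnajb11, Dnajc1 and Dnajc10, which also work with Hspa5 there, had changes of 0.09, 0.23 and -0.08.

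Dnajb12, Dnajb14 and Dnajc18 sit in the membrane of the compartment, with the J domain of Dnajb12 and Dnajb14 turned to cytosolic Hsp70. Dnajc18 read 0.74, 0.65, 0.76 and 0.78 at 3 months, 0.79, 0.76, 0.76 and 0.84 at 15 months, 1.22, 1.01, 0.99 and 0.92 at 24 months, and 0.88, 1.25, 1.05 and 1.21 at 29 months. Its rise of 0.36 ± 0.10 (1.29-fold, adjusted p = 0.0196) was not called within a slide (0.06 at 15 over 3 months, 0.06 at 29 over 24 months), and as with Dnajc2 the arrays of 24 and 29 months lay above those of 3 and 15 months. The call was lost without 3 months replicate 2 (adjusted p = 0.0604), 29 months replicate 2 (0.0550) or 29 months replicate 4 (0.0530), with no filter on dim probes (0.0528) and with only the ages compared (0.0826). Dnajb12 read 2.93, 2.92, 2.88 and 3.01 at 3 months, 2.59, 2.52, 2.47 and 2.42 at 15 months, 2.48, 2.72, 2.61 and 2.35 at 24 months, and 2.43, 2.69, 3.08 and 2.42 at 29 months. For Dnajb12 the 15-month group lay wholly below the 3-month group on slide 1 (change -0.44 ± 0.13), with an adjusted p of 0.163, which was the smallest among the 61 in that comparison. It was called without 29 months replicate 3 (adjusted p = 0.0483) and with only the ages compared (0.0204). At 29 over 3 months its change was -0.28 (adjusted p = 0.179) over all arrays and -0.42 (adjusted p = 0.0199) without 29 months replicate 3. Dnajb14 and Hspa13 had changes of -0.22 and -0.33 at 29 over 3 months, with adjusted p-values of 0.234 and 0.159, and Dnajc14 and Dnajc16 had changes of -0.16 and 0.24 (adjusted p = 0.553 and 0.228).

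Of the 10 tested mitochondrial genes, Dnajc28 rose at 29 over 3 months and 4 of 10 changes were above 0 (median -0.04), against 45.4% of all genes. Dnajc28 read 0.05, 0.34, 0.61 and 0.72 at 3 months, 0.57, 0.56, 0.01 and 0.54 at 15 months, 0.77, 0.92, 0.75 and 0.69 at 24 months, and 0.89, 1.44, 1.11 and 0.84 at 29 months. The rise of 0.64 ± 0.17 at 29 over 3 months was 1.56-fold (adjusted p = 0.0213), with -0.01 at 15 over 3 months and 0.29 at 29 over 24 months, neither called. The 15-month group held a low value in replicate 3. This call was lost without 3 months replicate 1 (adjusted p = 0.0683), 3 months replicate 2 (0.0585) or 29 months replicate 2 (0.0616), with only the ages compared (0.0690) and without the 4 arrays of lowest weight (0.0541). At 29 over 3 months Dnajc11 and Dnajc19 had an unadjusted p under 0.05 without being called, and the changes other than that of Dnajc28 lay between -0.44 and 0.12. Hspd1 and Hspe1, which form the chaperonin of the matrix, are encoded side by side and share a promoter region. Hspd1 read 5.70, 6.11, 5.97 and 6.02 at 29 months, against 5.92, 5.99, 5.99 and 6.23 at 3 months. Hspe1 read 4.73, 5.46, 5.25 and 5.24 at 29 months, against 5.14, 5.28, 5.08 and 5.33 at 3 months. Both pairs of groups overlapped, at changes of -0.08 (adjusted p = 0.667) and -0.04 (adjusted p = 0.888). Other probes for Hspe1 gave -0.38 and -0.03, neither called (adjusted p = 0.122 and 0.903 over all probes). Hspa9, the Hsp70 of the matrix, lay between 5.25 and 5.54 at 29 months and between 5.05 and 5.47 at 3 months (change 0.12, adjusted p = 0.518). Dnajc11 read -0.79, -0.29, -0.36 and -0.29 at 29 months, against -0.03, 0.09, -0.07 and 0.04 at 3 months. Dnajc11, which binds the complexes that shape the cristae, did not overlap (-0.44 ± 0.15, adjusted p = 0.0554) and was called without 24 months replicate 1 (adjusted p = 0.0381), 2 (0.0487) or 4 (0.0432). Without 29 months replicate 1 its change was -0.32 (adjusted p = 0.137). Dnajc19, of the protein import motor, had a change of -0.27 (adjusted p = 0.134), and Dnaja3, Dnajc4, Dnajc15 and Dnajc30 had changes of 0.01, -0.20, -0.05 and 0.06.

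**Figure D4:**
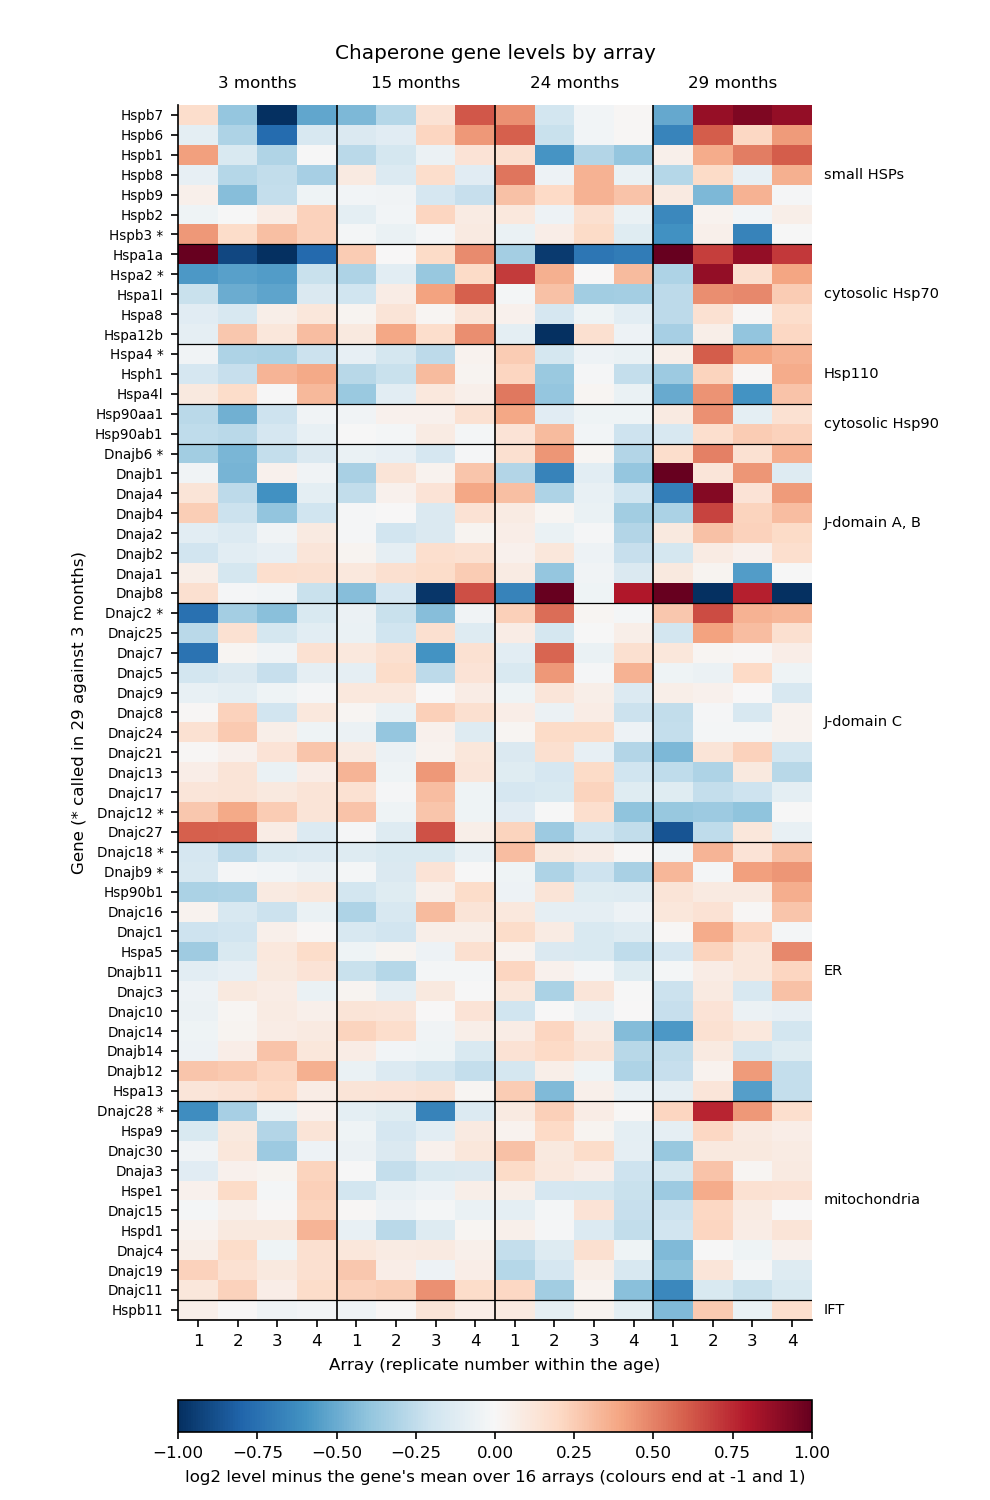
Log2 level of the 61 tested genes on each of the 16 arrays, minus the gene's own mean over the 16 arrays, by role, with ages from left to right in months and replicate numbers below. Colours end at -1 and 1. The array of 29 months replicate 1 is bluer than its 3 neighbours in many rows, being the lowest of 16 for 14 genes, and 29 months replicate 2 is the highest of 16 for 18 genes. Such extremes were not counted over all genes.

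The median residual SD of the 61 genes, the spread between arrays of an age, was 0.19 on the log2 scale, against 0.23 for all genes tested. It was highest for Dnajb8 (1.01), Hspa1a (0.74), Hspb7 (0.60), Dnaja4 (0.41) and Dnajb1 (0.39).

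The comparisons between neighbouring ages called few members. At 15 over 3 months none of the 61 was called by limma, 5 had an unadjusted p under 0.05 (8.20%, against 10.7% of all genes), and 0.978% of all genes were called. At 24 over 15 months, across the slides, none was called, 7 had an unadjusted p under 0.05 (11.5%, against 13.4% of all genes), and 0.0964% of all genes were called. At 29 over 24 months 1 was called (Dnajb9; 1.64%, against 1.91% of all genes) and 7 had an unadjusted p under 0.05 (11.5%, against 15.3% of all genes). At 15 over 3 months the 2 groups of arrays did not overlap for 5 of the 61 genes, against 12.1% of all genes. The same held for 6 of the 61 at 24 over 15 months (against 9.99%) and 3 at 29 over 24 months (against 7.04%). A linear term for age was fitted with a block for slide, so that only differences within slides count. The step from 3 to 15 months, the longer of those on 1 slide, weighs most in its slope. The linear term called none of the 61, against 0.634% of all genes. An unadjusted p under 0.05 was reached by 5 of the 61 (8.20%, against 10.9% of all genes). The largest slope of the linear term was that of Hspa1a, at 0.09 log2 per month (adjusted p = 0.467), or 0.14 (adjusted p = 0.0174) without 3 months replicate 1. The steps on the 2 slides share no array. The older age was higher in both steps for 24 of the 61 genes, against 4926 of all 21777 genes tested. It was lower in both for 11 of the 61, against 6537 of the 21777. The sign was thus the same for 57.4% of the 61, against 52.6% of all genes tested.

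**Figure D5:**
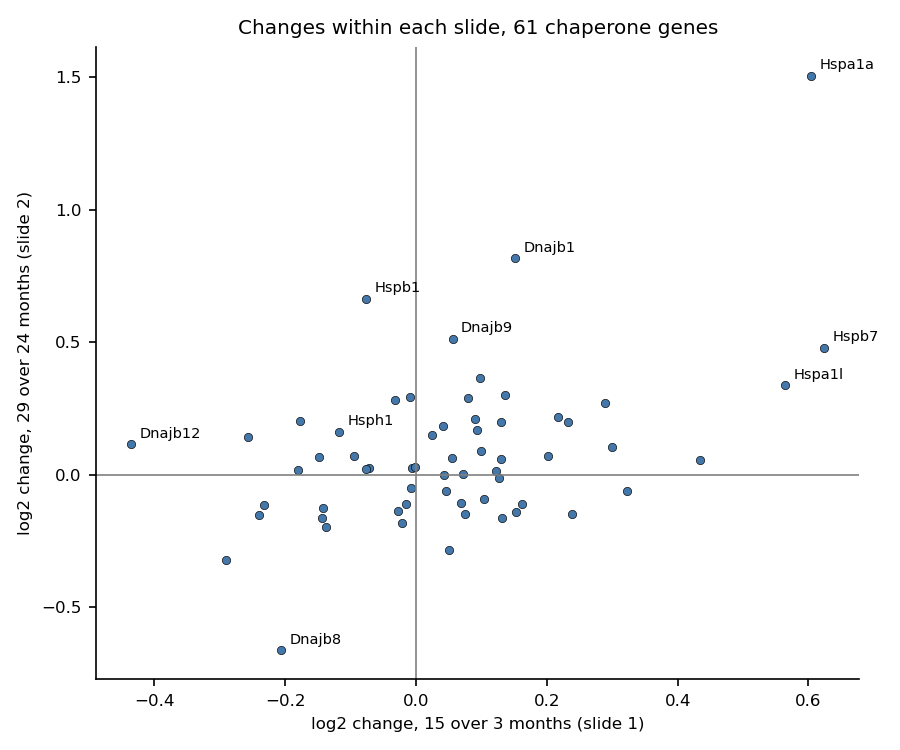
Log2 change at 15 over 3 months (slide 1, horizontal axis) against that at 29 over 24 months (slide 2, vertical axis) for the 61 tested genes. Hspa1a lies farthest to the upper right at 0.60 and 1.51. Above 0 on both axes lie 24 of the 61 genes, against 4926 of all 21777 genes tested, which are not drawn.

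Partners and regulators of the chaperones were described by 4 lists. Among 44 tested genes of 49 regulators and partners, 4 rose and 2 fell at 29 over 3 months, and the list's median change was -0.04. Bag3 read 5.60, 5.23, 5.24 and 5.55 at 3 months, 5.29, 5.49, 5.41 and 5.66 at 15 months, 5.79, 5.88, 5.74 and 5.56 at 24 months, and 5.70, 6.18, 5.98 and 6.13 at 29 months. Bag3, which joins Hspb8 and Hsp70 in clearing damaged filamin, was higher at 29 months on all 4 arrays (0.59 ± 0.13, 1.51-fold, adjusted p = 0.00759). Flnc, the filamin of the Z-disc, rose by 0.79 (adjusted p = 0.00919), Cryab, a small HSP under another name, by 0.77 (adjusted p = 0.0319), and the heat shock factor Hsf4 by 0.44 (adjusted p = 0.0188). Leaving out 1 array at a time, the Cryab call was lost in 5 of 16 fits (adjusted p up to 0.0954) and the Hsf4 call in 3 (up to 0.0550). Hsf4 was also called within slide 1, at 0.58 ± 0.12 higher at 15 than at 3 months (adjusted p = 0.0286), a call lost in 6 of 16 such fits (up to 0.0986). Serpinh1, the collagen chaperone of the endoplasmic reticulum, was 2.33-fold lower at 29 months (-1.22 ± 0.27, adjusted p = 0.00713), and Fkbp4, a cofactor of Hsp90, was also lower (-0.47, adjusted p = 0.0498). The Fkbp4 call was lost in 14 of 16 fits that left out 1 array (adjusted p up to 0.131), and without 29 months replicate 1 the change was -0.32 (adjusted p = 0.116). The summed fibroblast marker signal, as log2 over the 75th percentile, was 6.33 to 7.66 at 29 months, against 7.62 to 8.29 at 3 months, with all 8 markers above background on every array, and its part in the Serpinh1 result was not tested. Hsf1 and Hsf2 had changes of -0.17 (adjusted p = 0.459) and 0.45 (adjusted p = 0.0885), Fkbp5 had 1.15 (adjusted p = 0.0936), called without 29 months replicate 4 (1.43, adjusted p = 0.0485), and Stip1, Stub1 and Unc45b had -0.21, -0.07 and -0.27, none called over all arrays. Unc45b was called on the deposited values (-0.37, adjusted p = 0.0269) and after normexp background correction (-0.38, adjusted p = 0.0471).

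All 18 genes of the cytosolic chaperonin, prefoldin and related proteins were tested, and Pfdn2 (0.46) and Txndc9 (0.33) rose and Pfdn4 fell (-0.50) at 29 over 3 months, where the Txndc9 call was lost in 14 of 16 fits that left out 1 array (adjusted p up to 0.121). Of 22 tested genes of 25 for folding and stress signalling in the endoplasmic reticulum, 2 rose and 1 fell. Edem1 read -0.72, -0.63, -0.82 and -0.67 at 3 months, -0.94, -0.98, -0.71 and -0.64 at 15 months, -0.80, -1.03, -0.59 and -0.54 at 24 months, and 0.50, -0.39, 0.82 and -0.20 at 29 months. Edem1, which sends misfolded glycoproteins to degradation, was 1.86-fold higher at 29 than at 3 months (0.89 ± 0.21, adjusted p = 0.0122) and 1.90-fold higher than at 24 months (adjusted p = 0.0408). The call over 24 months was lost in 14 of 16 fits that left out 1 array, 29 months replicate 1 among them (adjusted p = 0.0720), while that over 3 months was kept in all 16. With only the ages compared, the Edem1 call over 3 months was lost (adjusted p = 0.0631). Over the other settings the change over 3 months lay between 0.42 and 0.93. The stress sensor Ern1, which encodes Ire1, rose by 0.51 (adjusted p = 0.0375), and Ddit3, a transcription factor of that stress response, fell by 0.70 (adjusted p = 0.0495). Leaving out 1 array at a time, the Ern1 call was lost in 6 of 16 fits (adjusted p up to 0.121) and the Ddit3 call in 12 (up to 0.144), both of them without 29 months replicate 1 (adjusted p = 0.0502 for Ern1 and 0.122 for Ddit3). Of 14 tested genes of 16 for mitochondrial protein quality, the protease subunit Clpx rose, by 0.58 over 3 months (adjusted p = 0.00449) and by 0.71 over 24 months (adjusted p = 0.00829). The Clpx call over 24 months was lost with only the ages compared (adjusted p = 0.145). It was also lost without the 4 arrays of lowest weight (0.62, adjusted p = 0.114). In all 4 lists the share called at 29 over 3 months lay between 7.14% and 16.7%, against 14.6% of all genes.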

How the data were processed

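Labelled RNA was measured on Agilent 1-colour (Cy3) arrays. The deposited scanner output gives spot intensity, made per the file headers with Feature Extraction 10.7.1.1, with background subtracted and arrays not normalized to each other. The authors' deposited series table holds log2 values, and the sources used here do not give how they were made. Its order by feature number matched the scanner files (r 0.985 to 0.993 across probes), its probe names did not (r -0.005 to 0.018), and it served as an alternative.

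Probes were named through the RefSeq table of GRCm38.p6, and probes without a match kept the names in the files. The level of a probe was log2 of its signal minus the 75th percentile of its array. Of 55681 probes, 93 with outlier spots were dropped, and 28435 were kept because 1 age or more had them well above background throughout its 4 arrays. A gene was its kept probe of highest mean (21777 genes). No spot was saturated, and 48.0% to 60.9% of spots that were not controls were well above background on an array. The number of arrays limits the precision.

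Means of the 4 ages were fitted over 16 arrays with limma 3.58.1 in R 4.3.3 (residual degrees of freedom 12, prior 2.73). Tests were two-sided and adjusted over all genes after Benjamini and Hochberg. The line in age had slide as a block. The steps were tested on simulated data. Groups came from the labels and slides from the file headers. Any member could be named, and values in every sample are given for called members and a fixed list, in full or by range. Non-members named are called genes of the pathway lists and 8 fixed genes. Members and lists were chosen with earlier results of these data known. Role groups follow known locations and were set with the values known. Positions are given for the printed promoter windows alone, on the RefSeq build, since the arrays' headers name another build. The alternatives were quantile and median scaling, normexp, the deposited values, other filters, averaging a gene's probes, fitting only the ages compared, a replicate block, eBayes with trend and robust, at least 1.5-fold, and leaving out arrays.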

Additional observations from a re-analysis of the deposited data

Results flagged for a closer look

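In 13 of the 172 groups of 4 arrays examined (43 genes at 4 ages), the highest or lowest array stood apart by Dixon's criterion at the 95% level, which chance gives in about 5% of groups. All values are log2 levels over the 75th percentile of the array, and the cause of each was not tested.

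At 29 months, replicate 1 was low for Hspb7 (3.76, nearest other array 5.15) and for Hspb2 (5.09, nearest 5.71), both small HSPs of muscle. At the same age, replicate 4 was high for Dnajc12 (2.88, nearest 2.52) and Hsp90b1 (4.99, nearest 4.75), and replicate 3 was low for Dnaja1 (3.25, nearest 3.80). At 24 months, replicate 1 was high for Hsp90aa1 (3.73, nearest 3.31).

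At 15 months, replicate 3 was low for Dnajc28 (0.0102, nearest 0.54), Dnajc7 (3.47, nearest 4.18) and Dnajc10 (1.78, nearest 1.90) and high for Hsp90ab1 (8.10, nearest 8.01), and replicate 4 was low for Hspa13 (0.44, nearest 0.56). At 3 months, replicate 4 was high for Hspa2 (0.26, nearest -0.06) and replicate 2 was low for Dnajb1 (2.07, nearest 2.50). The high value of Hspa1a in 3 months replicate 1 did not pass this criterion.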

How the results depend on the processing

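The count of 9 chaperone genes called at 29 against 3 months (with 14.6% of all genes called) became 5 at 1.5-fold or more (8.96% of all genes called), 1 (higher) with median scaling (7.06%), 4 with only the ages compared (9.11%) and 15 without the 4 arrays of lowest weight (17.2%), of which 5 were among the 9, while Hspb3, Dnajc12, Dnajc28 and Dnajb9 were lost. Leaving out those 4 arrays was chosen after seeing the data, as was testing each probe. At 15 against 3 months the count of 0 became 1 with only the ages compared and 1 without those 4 arrays. At 29 against 24 months the count of 1 became 0 at 1.5-fold, with the deposited values, with median scaling, with no filter and without those 4 arrays, and 2 with each probe on its own, and with only the ages compared the 1 call was Hspa1a (adjusted p = 0.0441) in place of Dnajb9 (0.292). The line's count of 0 became 1 without those 4 arrays. Over the 16 left-out arrays the counts ranged from 0 to 1 (15 against 3), 0 to 0 (24 against 15), 0 to 2 (29 against 24) and 0 to 1 (line). In the fit of all 16 arrays, 0.978%, 0.0964%, 1.91% and 0.634% of all genes were called in these comparisons, in that order. At 29 against 3 months the count ranged from 5 (10% of all genes called) to 15 (13.7%), and the median change from 0.04 to 0.13. Over the other settings that median stayed between 0.02 and 0.17. The cause of these shifts was not tested. No called value changed sign in the settings run. Dnajc2, Hspa4, Dnajb6, Dnajc12 and Hspb3 were called at 29 against 3 months whichever single array was left out, and Dnajc2 was also the call under median scaling. With the replicate block 8 chaperone genes were called (6 higher, 2 lower) at 29 against 3 months, against 12.5% of all genes. Between 29 and 24 months 1 chaperone gene was called with that block. The numbers did not pair the arrays: over 24 same-numbered pairs r lay between -0.47 and 0.30, and 2 of 16 arrays correlated best with their own number. Slide as a random block could not be fitted because each age lay on 1 slide.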

Other observations

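Arrays differed in how often they were extreme for the 61 tested chaperone genes. Such extremes were not counted over all genes, so a pattern particular to the chaperones cannot be read from them. The array of 29 months replicate 2 was the highest of 16 for 18 genes and the lowest for 3, whereas 29 months replicate 1 was the highest for 1 and the lowest for 14. No array of 15 months or 24 months was the highest for more than 7 genes. Members with a heat shock unit in a promoter window had a median log2 change of 0.13 at 29 over 3 months (14 tested genes, 2 or 14.3% called), and matched members without a unit had 0.04 (35 genes, 4 or 11.4% called), against 14.6% of all genes called, given as a description.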
